A study of Homo sapiens with 48 samples.

Results

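The replication-dependent histone genes encode the bulk of the chromatin proteins of a dividing cell. The 65 members described here are the protein-coding genes of the count table whose symbols are H2AC, H2BC, H3C or H4C followed by a number, or H1-1 to H1-5. They were 65 of 36843 listed genes and of 19955 protein-coding genes. They comprised 5 genes of the linker histone H1, 16 of H2A, 17 of H2B, 13 of H3 and 14 of H4. RNA was counted in 30 libraries of 3 established human pancreatic ductal adenocarcinoma cell lines, ASPC1, CFPAC1 and Panc3.27, in 10 groups of 3. ASPC1 and CFPAC1 were each transfected with a control siRNA (siCTRL) or an siRNA against the zinc finger gene ZNF274 (siZNF274), or were given DMSO, the solvent, or 5 µM of the drug azacitidine (AZA), which blocks DNA methyltransferases. Panc3.27 carried an empty vector or a vector for overexpression of ZNF274 (OE). The duration of each of these treatments, and whether Panc3.27 cells were a pool or a clone, were not given in the sources used here. The remaining 18 of the 48 samples were CUT&RUN profiles of ASPC1 with a doxycycline-induced hairpin, either a control (shCTRL) or one against ZNF274 (shZNF274). Doxycycline was given at 1 µg/ml for 9 days. Of these profiles the list of H3K9me3 peaks was used.

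Replication-dependent histone genes are transcribed in S phase, when newly copied DNA is packed into nucleosomes. H2A, H2B, H3 and H4 form the nucleosome core, and H1 binds the DNA that links nucleosomes. Most of their mRNAs end in a stem-loop in place of a poly(A) tail. SLBP binds this stem-loop, the U7 small nuclear ribonucleoprotein directs the cut that forms the mRNA end, and NPAT activates transcription at histone locus bodies. The libraries were made from total RNA after removal of ribosomal RNA, so mRNAs without a poly(A) tail could be counted.

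The members lie in 4 stretches of the genome, in the hg38 positions of the count table. On chromosome 6, 33 lie between 25726063 and 26285638, 5 between 27125897 and 27147562, and 16 between 27807444 and 27893891. On chromosome 1, 11 lie between 149782689 and 149887965. Within a family the coding sequences are close to each other, and H2AC18 and H2AC19, H3C14 and H3C15, and H4C14 and H4C15 are near-identical copies. How reads matching several copies were counted, and with which strand setting, is not given in any source used here. Counts of single copies therefore carry that uncertainty. Some members also overlap each other in the table, namely H4C14 with H3C14, H3C15 with H4C15, H2BC15 with H2AC15 and H3C12 with H2AC17.

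The promoters of 7 members whose levels the results turn on are shown first, as the 250 bases before the RefSeq start in GRCh38.p14, read 5′ to 3′ on the strand of the gene. H4C6 (chr6:26240143-26240392, plus strand), H3C8 (chr6:26271414-26271663, minus strand), H1-1 (chr6:26017788-26018037, minus strand) and H2BC3 (chr6:26043714-26043963, minus strand) differed most between lines, and each rose under AZA in 1 line. They are shown for their CG dinucleotides, the sequence at which DNA methyltransferases act, which are in capitals.
H4C6: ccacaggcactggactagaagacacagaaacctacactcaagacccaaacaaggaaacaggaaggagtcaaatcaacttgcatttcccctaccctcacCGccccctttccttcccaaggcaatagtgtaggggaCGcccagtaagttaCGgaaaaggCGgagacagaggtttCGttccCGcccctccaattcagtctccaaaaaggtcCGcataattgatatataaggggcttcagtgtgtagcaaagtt
H3C8: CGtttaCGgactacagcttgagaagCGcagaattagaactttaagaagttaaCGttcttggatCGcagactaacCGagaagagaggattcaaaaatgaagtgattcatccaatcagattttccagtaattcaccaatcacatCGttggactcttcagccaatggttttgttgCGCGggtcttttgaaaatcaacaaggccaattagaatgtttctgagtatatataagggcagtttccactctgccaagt
H1-1: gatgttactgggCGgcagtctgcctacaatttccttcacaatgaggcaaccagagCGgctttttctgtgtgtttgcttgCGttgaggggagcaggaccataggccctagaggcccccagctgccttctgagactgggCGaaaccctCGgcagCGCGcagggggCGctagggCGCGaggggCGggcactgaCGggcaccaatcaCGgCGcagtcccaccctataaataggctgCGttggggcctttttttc
H2BC3: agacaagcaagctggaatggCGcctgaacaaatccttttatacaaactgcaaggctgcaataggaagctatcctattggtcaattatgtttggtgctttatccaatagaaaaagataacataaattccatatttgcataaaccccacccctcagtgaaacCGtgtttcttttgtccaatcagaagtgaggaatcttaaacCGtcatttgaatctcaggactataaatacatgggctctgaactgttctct
The bases shown held 7 CG dinucleotides for H4C6, 9 for H3C8, 15 for H1-1 and 3 for H2BC3. DNA methylation itself was not measured in the data used here.

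H2BC7 (chr6:26199266-26199515, plus strand) and H3C3 (chr6:26045134-26045383, plus strand) were lower in all 5 treatment comparisons, H3C3 with an unstable call in CFPAC1 siZNF274. H2BC10 (chr6:26272681-26272930, plus strand) was the core histone gene with the largest fall among well-counted members in ASPC1 with siZNF274. Capitals mark matches on either strand to 3 short motifs of histone promoters, the octamer ATTTGCAT, the TATA box TATAAA and the CCAAT box.
H2BC7: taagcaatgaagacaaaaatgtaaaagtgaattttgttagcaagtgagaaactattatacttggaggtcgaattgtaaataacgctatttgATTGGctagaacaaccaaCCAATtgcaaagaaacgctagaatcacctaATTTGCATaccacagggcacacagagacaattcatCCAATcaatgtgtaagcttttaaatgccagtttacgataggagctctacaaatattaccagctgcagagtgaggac
H3C3: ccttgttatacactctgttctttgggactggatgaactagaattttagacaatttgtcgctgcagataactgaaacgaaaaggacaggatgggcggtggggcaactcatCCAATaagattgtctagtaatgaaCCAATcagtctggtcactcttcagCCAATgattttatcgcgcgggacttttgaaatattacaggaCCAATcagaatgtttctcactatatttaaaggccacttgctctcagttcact
H2BC10: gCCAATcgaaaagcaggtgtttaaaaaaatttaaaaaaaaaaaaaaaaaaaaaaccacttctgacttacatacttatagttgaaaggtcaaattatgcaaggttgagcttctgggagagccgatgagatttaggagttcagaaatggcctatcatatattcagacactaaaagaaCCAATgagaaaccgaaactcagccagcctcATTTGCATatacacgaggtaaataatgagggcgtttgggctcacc
H2BC7 and H2BC10 each held the octamer and CCAAT boxes, and H3C3 held CCAAT boxes alone. Promoter windows of 300 bases, 250 before the start and 50 after it, were found for 60 of the 65 members. The octamer stood on either strand in 14 of 17 H2B windows and 11 of 15 H2A windows, against 1 of 11 for H3, 0 of 5 for H1 and 0 of 12 for H4. Over all 35116 windows of the RefSeq table its share was 1.77%. TATAAA was in 42 of 60 members (70.0%) and in 11.53% of all windows. CCAAT was in 51 of 60 members (85.0%), but in 3 of 12 for H4, and in 34.61% of all windows. The H1 motif AAACACA was in 5 of 5 H1 windows and in 8 of 60 members (13.3%), against 5.64% of all windows. CG dinucleotides numbered 3 to 27 per member window with a median of 11, against a median of 14 over the table. In these windows of 300 bases H4C6, H3C8, H1-1 and H2BC3 held 8, 10, 17 and 3.

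Library totals ran from 31415743 to 43383141 counts, and no 2 libraries of a group were identical. The targeted gene was read first. ZNF274 was at 15.8, 16.3 and 20.6 counts per 1e+06 counts, scaled by TMM factors (CPM), in ASPC1 siCTRL and at 16.6, 19.2 and 22.4 CPM in the libraries labelled siZNF274 (log2 fold change 0.15, adjusted p 0.305, quasi-likelihood test of edgeR, p adjusted by Benjamini-Hochberg). In CFPAC1 it was at 33.5, 34.0 and 35.7 CPM with siCTRL and at 32.6, 34.4 and 31.5 CPM in the libraries labelled siZNF274 (log2 −0.07, adjusted p 0.423, same test). The mRNA of the target was therefore not lower in either line, and each direction given below for siZNF274 is one of libraries so labelled. In Panc3.27 ZNF274 was at 47.4, 50.4 and 49.4 CPM with the vector and 133, 135 and 139 CPM with OE (log2 1.47, adjusted p 4.17e-11, same test). The summed level of 5 epithelial markers lay between 4178 and 15010 CPM in every group. Of the 4 leukocyte markers, LYZ was at 273 CPM on average in ASPC1 DMSO and 75.9 CPM in CFPAC1 DMSO, CD3E was at 1.12 CPM in Panc3.27 with the vector, CD68 was under 1 CPM in every group, and PTPRC was at or under 0.13 CPM.

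In the control groups most members were well counted, and their levels spanned several orders of magnitude. Levels of different genes were compared per kilobase for the 41 members that span at most 1000 bases. In ASPC1 DMSO the core histone gene H3C3 led with 349.7 ± 31.5 CPM per kilobase (SD, n = 3), followed by the linker gene H1-2 with 271.7 ± 14.6 and by H2BC12 with 262.8 ± 6.2. H1-2 and H2BC12 overlapped within these SDs, as did H3C2 at 246.1 and H2AC14 at 237.3 CPM per kilobase, whose SDs were 6.01 and 25.3. In CFPAC1 DMSO H1-2 led with 383.0 ± 27.7 CPM per kilobase, followed by H2BC12 with 326.0 ± 12.9 and H3C2 with 287.4 ± 22.7. In Panc3.27 with the vector H3C2 (331.7 ± 17.9), H2BC12 (321.2 ± 13.1), H1-5 (313.8 ± 28.2), H1-2 (309.2 ± 16.8) and H3C3 (303.0 ± 27.4 CPM per kilobase) lay within each other's spread. Among the 5 H1 genes the level per kilobase fell in the order H1-2, H1-5, H1-4, H1-3 and H1-1 in ASPC1 and CFPAC1 DMSO. H1-5 and H1-4 overlapped within their SDs in ASPC1 DMSO and not in CFPAC1 DMSO. H1-1 was at 0.1065 ± 0.0621 CPM per kilobase in ASPC1 DMSO, 10.57 ± 1.34 in CFPAC1 DMSO and 127.1 ± 5.68 in Panc3.27 with the vector.

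At the low end, 8 members passed the filter on low counts in no line: H2AC1, H2AC18, H2AC19, H2BC1, H3C4, H3C15, H4C7 and H4C15. H2AC18 reached 13 counts in its highest library and H2AC1 reached 1. H2AC1, a gene known from the testis, was at 0 in each control group of DMSO or vector. Of the 65 members, 57 were tested in ASPC1, 56 in CFPAC1 and 55 in Panc3.27. A further 2 members were tested in some lines only, H3C14 in ASPC1 and H2AC7 in ASPC1 and CFPAC1. Of the 6 near-identical copies on chromosome 1, H4C14 was tested in every line and H3C14 in ASPC1.

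The 2 lines given DMSO differed in single members by up to 353-fold, while most members lay near each other. Of 58 members tested, 38 differed between CFPAC1 and ASPC1 DMSO, 15 higher and 23 lower in CFPAC1, where 77.4% of all tested genes differed, 41.0% higher and 36.3% lower. The median log2 difference of the members was −0.06, against 0.06 over all genes. The split of higher and lower was 21 and 20 with scaling by RLE, by the upper quartile or by the total count. The largest differences upwards were those of H4C6, a gene for the core histone H4, of the linker gene H1-1 and of H3C8, a gene for the core histone H3.

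H4C6 was at 0.119 ± 0.036 CPM in ASPC1 DMSO and 43.6 ± 2.4 CPM in CFPAC1 DMSO on the common scale of both lines (n = 3 each), 353-fold higher (adjusted p 1.2e-25, edgeR's quasi-likelihood test). The size of this fold is uncertain, since it rests on few reads in ASPC1. H1-1 was at 0.084 ± 0.049 and 7.67 ± 1.05 CPM, 88.7-fold higher (adjusted p 1.8e-19, same test). H3C8 was at 1.33 ± 0.07 and 91.1 ± 2.1 CPM, 68.7-fold higher (adjusted p 8.63e-26, same test). H4C6 and H1-1 were thus near the limit of counting in ASPC1, H3C8 was low, and all 3 were well counted in CFPAC1. The opposite order was seen for 3 H2B genes of chromosome 6. H2BC3 was at 12.5 ± 1.9 CPM in ASPC1 and 1.18 ± 0.36 CPM in CFPAC1, 10.6-fold lower (adjusted p 4.99e-15, same test). H2BC14 was at 21.5 ± 2.7 and 3.20 ± 0.65 CPM (log2 −2.74), and H2BC6 at 77.8 ± 9.7 and 14.5 ± 0.9 CPM, 5.35-fold lower. H2BC6 spans a long stretch in the table that overlaps a long non-coding gene, so its count is uncertain. H1-2 was at 206 ± 11 CPM in ASPC1 and 269 ± 22 CPM in CFPAC1, a difference of 0.38 on the log2 scale (adjusted p 1.19e-05, same test). Among the H2A genes, H2AC11 was higher in CFPAC1 by 0.97 and H2AC4 differed by −1.12 on the log2 scale.

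**Figure D1:**
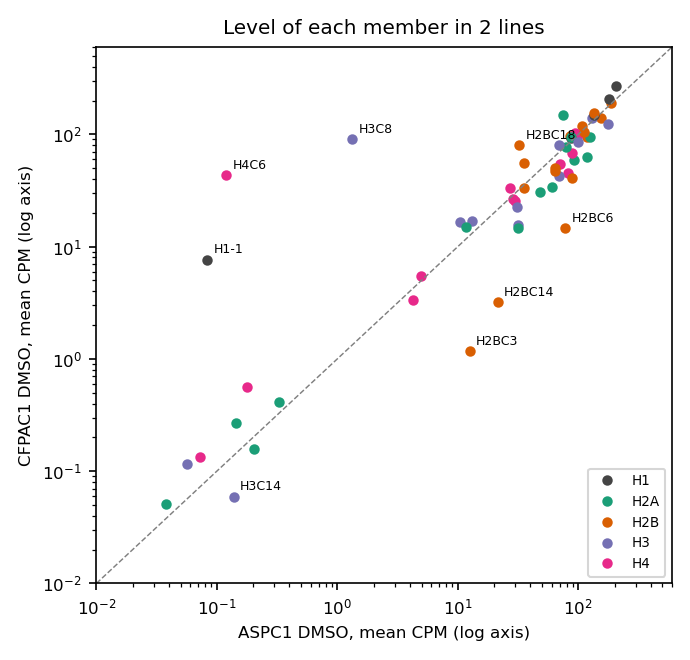
Mean CPM of each of 61 members above 0 in both groups, in ASPC1 DMSO (horizontal, log axis) and CFPAC1 DMSO (vertical, log axis), coloured by family, with the line of equality dashed. H4C6, H1-1 and H3C8 lie far above the line, with 43.6, 7.67 and 91.1 CPM in CFPAC1, and H2BC3, H2BC14 and H2BC6 lie below it.

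In ASPC1, 37 of 57 tested members fell in the libraries labelled siZNF274 and none rose, against 45.7% of all tested genes called in either direction, 21.5% higher and 24.2% lower. The median member differed by −0.36 on the log2 scale, where the median over all genes was 0.00 to 2 decimals. The core histone genes accounted for nearly all of the calls. Lower were 13 of 16 tested H2B genes (median log2 −0.45), 9 of 13 H2A genes (−0.30), 7 of 11 H3 genes (−0.41) and 7 of 12 H4 genes (−0.35), but 1 of 5 H1 genes (−0.12). The calls came from every stretch, with 18 of 29 tested members in the first stretch of chromosome 6, 3 of 5 in the second, 12 of 16 in the third and 4 of 7 on chromosome 1. In 39 tested members all 3 libraries labelled siZNF274 lay below all 3 of siCTRL, as they did in 26.5% of all tested genes.

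Together the members took 0.347%, 0.341% and 0.382% of the counts with siCTRL, and 0.296%, 0.295% and 0.270% in the libraries labelled siZNF274, so the groups did not overlap. The H2B genes took 0.127%, 0.118% and 0.132% and then 0.0919%, 0.0952% and 0.0867%, again with no overlap. The H1 genes took 0.0496%, 0.0506% and 0.0591% and then 0.0536%, 0.0531% and 0.0492%, which did overlap. In bulk RNA, fewer cells in S phase and less histone mRNA per cell cannot be told apart.

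**Figure D2:**
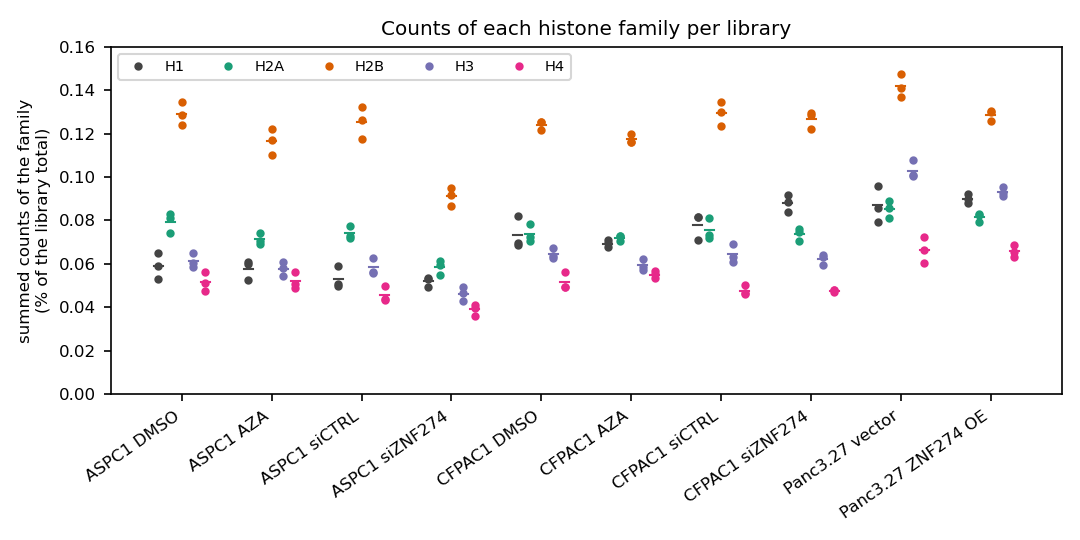
Summed counts of each histone family as a percent of the library total (vertical) in each library of the 10 groups (horizontal), with a bar at the mean of 3 libraries. In ASPC1 the H2B family falls from a mean of 0.126% with siCTRL to 0.0913% in libraries labelled siZNF274, while H1 is at 0.0531% and 0.0519%.

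H2BC10, a gene for H2B, was at 36.3, 30.4 and 37.1 CPM with siCTRL and 18.4, 18.6 and 17.1 CPM in the libraries labelled siZNF274. It fell 1.92-fold (log2 −0.94, SE 0.082, adjusted p 1.83e-07, edgeR's quasi-likelihood test), and the groups were far apart. H2BC7 fell from 109, 99.0 and 90.9 CPM to 54.9, 57.1 and 49.7 CPM, or 1.85-fold (log2 −0.89, SE 0.077, adjusted p 1.77e-07, same test). H2BC6 fell from 84.4, 76.0 and 88.3 CPM to 44.4, 49.4 and 43.8 CPM (log2 −0.85, SE 0.086). These were the 3 H2B genes with the largest falls. Separate groups were a condition for naming them, so their lack of overlap is no further result. Among H2A genes, H2AC14 fell from 115, 101 and 97.6 CPM to 65.9, 57.3 and 54.1 CPM (log2 −0.82, SE 0.088, adjusted p 1.64e-06, same test). H2AC16 (log2 −0.52) and H2AC15 (log2 −0.51) followed.

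Among the H3 genes, H3C3 fell from 154, 133 and 132 CPM to 95.1, 97.4 and 81.4 CPM, or 1.53-fold (log2 −0.61, SE 0.078, adjusted p 1.01e-05, same test). H3C12 (log2 −0.54) and H3C1 (log2 −0.47) came next. Among H4 genes, H4C6 held 14, 13 and 13 counts with siCTRL and 1, 2 and 6 counts in the libraries labelled siZNF274 (log2 −2.13, SE 0.46, adjusted p 0.00136, same test), so its large fold rests on few reads. H4C11 fell from 4.4, 3.02 and 4.32 CPM to 2.89, 2.61 and 2.35 CPM (log2 −0.57). The well-counted H4C8 fell from 89.3, 83.8 and 94.5 CPM to 70.5, 67.7 and 62.3 CPM (log2 −0.42, SE 0.064, adjusted p 7.03e-05, same test). H3C14 was called with log2 −3.25, but its control counts were 29, 70 and 2, so 1 control library lay as low as the treated ones with 5, 2 and 3.

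The linker histones moved less. H1-3 fell from 79.0, 78.4 and 93.8 CPM to 71.1, 62.8 and 63.5 CPM (log2 −0.35, SE 0.089, adjusted p 0.0046, same test). H1-2 was at 174, 171 and 195 CPM and at 182, 184 and 160 CPM (log2 −0.04, adjusted p 0.673, same test). H1-4 (log2 0.06), H1-5 (log2 −0.12) and H1-1 with 2 to 6 counts per library (log2 −0.46) did not pass the test either. Divergent pairs, in which an H2A and an H2B gene start within 500 bases of each other on opposite strands, were lower in both genes for H2BC21 and H2AC20, H2BC4 and H2AC6, H2BC8 and H2AC8, H2BC13 and H2AC13, and H2AC14 and H2BC14. In the pairs of H2BC17 with H2AC17, H2AC15 with H2BC15, H2BC11 with H2AC11 and H2BC7 with H2AC7, 1 gene was called. The uncalled H2AC17 and H2AC7 were near the limit of counting, at 0.33 and 0.14 CPM on average in ASPC1 DMSO.

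Markers of cell types moved in the same libraries. The sum of 5 epithelial markers was 9644 to 10920 CPM with siCTRL and 6802 to 7508 CPM in ASPC1 libraries labelled siZNF274, with 5 of 5 lower. The sum of 4 leukocyte markers was 163.3 to 167.2 CPM and then 94.68 to 104.7 CPM, nearly all of it LYZ, with CD3E at 0 in both groups. The sum of 4 fibroblast markers, most of it LUM, was 116.5 to 127.9 CPM and then 134.7 to 145.8 CPM, and that of 3 endothelial markers stayed at or under 1.338 CPM. Here and in the comparisons that follow, the part of such markers in the levels of the members was not tested.

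**Figure D3:**
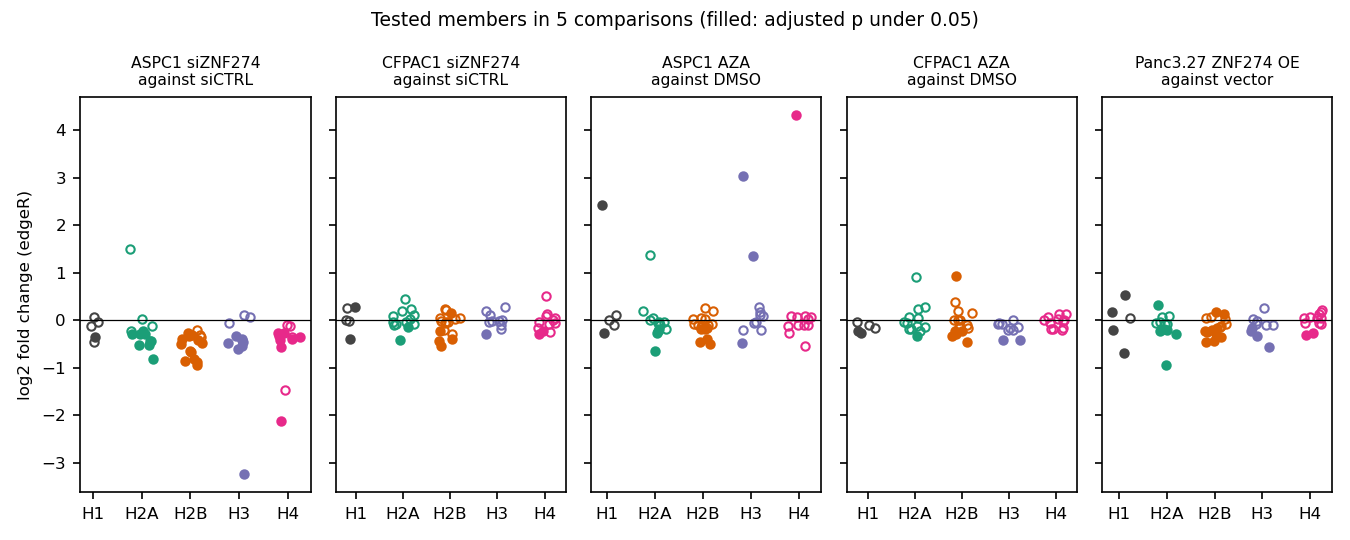
Log2 fold change of each tested member (vertical) by family (horizontal) in 5 comparisons, with filled points at an adjusted p under 0.05 in edgeR's quasi-likelihood test. In ASPC1 siZNF274 all 37 filled points lie below 0, and in ASPC1 AZA the points for H4C6 at 4.32, H1-1 at 2.42 and H3C8 at 1.36 stand high.

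CFPAC1 showed few such changes in the libraries labelled siZNF274. Of 56 tested members 12 were called, 2 higher and 10 lower, against 24.8% of all tested genes, 11.6% higher and 13.2% lower. The member median was −0.03 on the log2 scale. The count was 6 without siZNF274 replicate 2, 7 without siZNF274 replicate 3 and 7 without siCTRL replicate 2. With the replicate number as a block it was 16, with 5 higher and 11 lower. Deviations of same-numbered libraries of these groups correlated at 0.508, 0.222 and 0.158. A library matched its own number best in only 2 of 6 cases, so pairing by number was not established. The split was 4 higher and 8 lower with upper-quartile scaling, and 3 higher and 8 lower with RLE or total-count scaling.

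H2BC10 fell in CFPAC1 from 36.6, 40.1 and 34.6 CPM to 27.0, 26.7 and 28.8 CPM (log2 −0.43, SE 0.064, adjusted p 1.3e-04, same test). H2AC14 fell from 73.2, 69.8 and 52.1 CPM to 49.6, 48.9 and 47.8 CPM (log2 −0.42), and H2BC7 from 108, 109 and 81.1 CPM to 75.8, 75.5 and 76.4 CPM (log2 −0.39). These 3 members had also fallen in ASPC1. Members were named in part for separate groups, so the separation of theirs is no further result. H3C3 fell from 143, 151 and 117 CPM to 113, 111 and 113 CPM (log2 −0.29, adjusted p 0.0213, same test), a call lost in every fit that left out 1 library except that without siCTRL replicate 3 (adjusted p up to 0.12). The call of H2BC14 (log2 −0.55) was lost without siCTRL replicate 2 or siZNF274 replicate 1 or 3 (adjusted p up to 0.154). Those of H4C13 (log2 −0.29) and H2AC8 (log2 −0.15) were lost in 8 and 10 alternatives (adjusted p up to 0.201 and 0.236). Among the linker genes, H1-2 rose from 284, 304 and 305 CPM to 362, 348 and 370 CPM (log2 0.27, SE 0.056, adjusted p 0.00196, same test), and it did so in every alternative fit. H1-1 fell from 8.71, 8.31 and 7.84 CPM to 6.56, 5.74 and 6.60 CPM (log2 −0.40, adjusted p 0.0091, same test), a call lost without siZNF274 replicate 2 (adjusted p 0.0608). H1-3 (log2 −0.01) and H1-5 (log2 0.00) did not pass the same test. H1-4 (log2 0.27) did not pass it either (adjusted p 0.128), but was called higher with the replicate block (adjusted p 0.0282). The second member that rose was H2BC5, from 103, 108 and 100 CPM to 116, 116 and 113 CPM (log2 0.15), a call lost in 7 alternatives (adjusted p up to 0.0745). Beside these members, 5 of 5 epithelial markers fell in CFPAC1, from a sum of 7956 to 9023 CPM to 7140 to 7438 CPM. The leukocyte sum was 66.74 to 72.51 CPM and then 79.7 to 94.34 CPM, that of fibroblast markers 100.4 to 146.7 and then 88.03 to 163.2 CPM, and that of endothelial markers 1.774 to 2.031 and then 1.607 to 1.9 CPM. Most of these sums was LYZ, COL1A1 and PECAM1, in that order.

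The difference between the lines was tested directly in 1 fit of 24 libraries. For siZNF274 against siCTRL, 28 of 58 members had a higher log2 fold change in CFPAC1 than in ASPC1 and none a lower one, against 16.6% of all genes, 9.28% higher and 7.37% lower. The members with a difference were 12 of 16 H2B genes, 7 of 14 H2A genes, 6 of 11 H3 genes, 2 of 12 H4 genes and 1 of 5 H1 genes. The count was 18 without ASPC1 siZNF274 replicate 3. H2BC6 differed by 0.91 (SE 0.12, adjusted p 4.42e-06, same test), with 17.1, 14.4 and 14.2 CPM in CFPAC1 siCTRL and 16.5, 16.2 and 14.4 CPM in the libraries labelled siZNF274, which overlapped. H2BC18 differed by 0.60, H2AC15 by 0.55, H3C12 by 0.53, H4C8 by 0.43 and the weakly counted H4C6 by 1.92. H3C3 had a difference of 0.34 that did not pass the test (adjusted p 0.0545, same test).

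**Figure D4:**
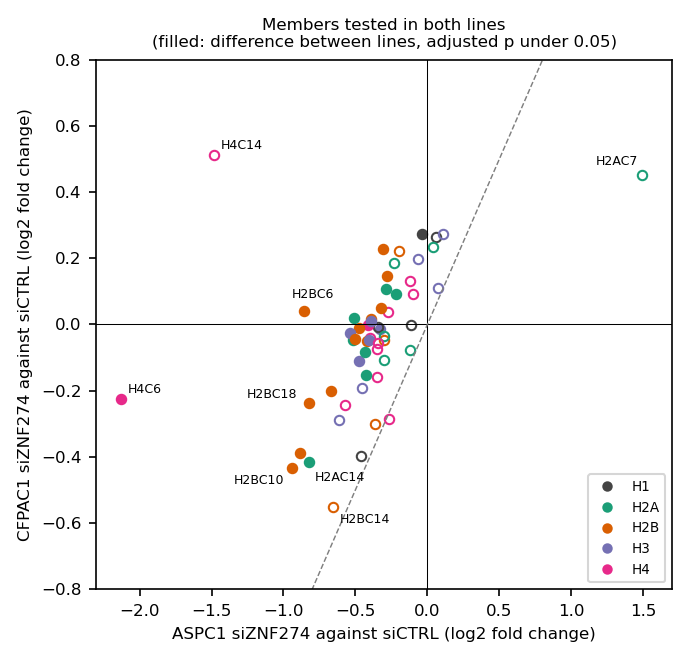
Log2 fold change of 56 members in libraries labelled siZNF274 against siCTRL in ASPC1 (horizontal) and CFPAC1 (vertical), with the line of equality dashed and filled points where the difference between lines had an adjusted p under 0.05. Filled points lie above the dashed line, such as H2BC6 with a difference of 0.91.

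Under AZA in ASPC1, a few members that were low with DMSO rose while several better counted ones fell. Of 57 tested members 14 were called, 4 higher and 10 lower, against 35.8% of all tested genes, 17.2% higher and 18.6% lower. The member median was −0.06 on the log2 scale. H4C6 rose from 6, 3 and 4 counts with DMSO to 73, 103 and 91 counts with AZA, or from 0.153, 0.084 and 0.107 CPM to 2.09, 2.68 and 2.35 CPM. This was 19.9-fold with a 95% interval from 12.2 to 32.5 (log2 4.32, SE 0.33, adjusted p 6.47e-08, same test). H1-1 rose from 4, 4 and 1 counts to 13, 20 and 17 counts, 5.36-fold with a 95% interval from 2.68 to 10.7 (log2 2.42, adjusted p 7.94e-04, same test). H3C8 rose from 1.23, 1.35 and 1.25 CPM to 3.38, 3.77 and 2.68 CPM, 2.56-fold with a 95% interval from 1.97 to 3.33 (log2 1.36, adjusted p 2.15e-05, same test). These 3 members are those with the largest gap between the DMSO levels of the lines, and with AZA they were still far under their CFPAC1 levels. The gap and the AZA fold both use the same 3 ASPC1 DMSO libraries, so they are not independent. The fourth, H3C14, had 7, 5 and 3 counts with DMSO and 2, 69 and 57 with AZA, so its groups overlapped. Its call was lost without AZA replicate 2 or 3 or DMSO replicate 2 or 3 (adjusted p up to 0.0918).

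**Figure D5:**
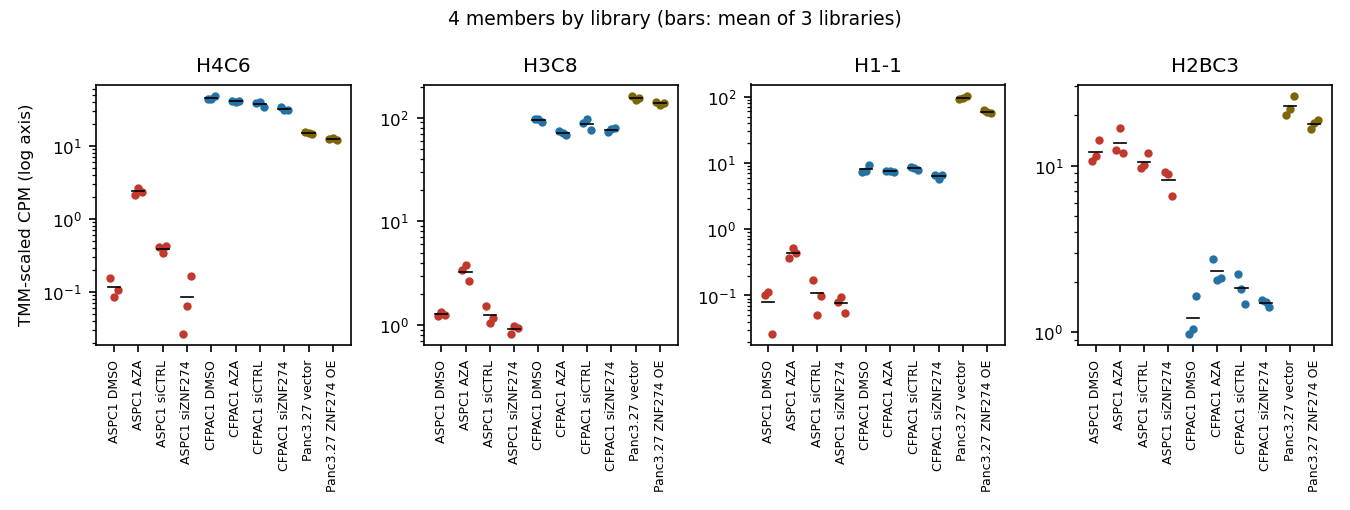
TMM-scaled CPM (log axis) of H4C6, H3C8, H1-1 and H2BC3 in each library of the 10 groups, scaled within each line, with a bar at the mean of 3 libraries. In ASPC1 the AZA libraries of H4C6, at 2.09 to 2.68 CPM, lie above those of DMSO and far below CFPAC1, and H2BC3 has the reverse order of lines.

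The members that fell under AZA in ASPC1 included H2A, H2B and H3 genes. H2AC14 fell from 115, 124 and 100 CPM to 71.9, 77.3 and 68.0 CPM (log2 −0.64, SE 0.087, adjusted p 2.87e-05, same test). H2BC7 fell from 122, 121 and 102 CPM to 80.2, 82.6 and 79.7 CPM (log2 −0.50, SE 0.075). H3C3 fell from 185, 171 and 154 CPM to 119, 125 and 120 CPM (log2 −0.49, SE 0.077). The AZA libraries of these 3 members lay below those of DMSO, which was a condition for naming them. H2BC4 (log2 −0.46), H2BC18 (log2 −0.39), H2AC20 (log2 −0.27) and H2AC8 (log2 −0.24) also fell, the last with a call lost without DMSO replicate 2 (adjusted p 0.0541). Of the H1 genes, H1-3 fell (log2 −0.26, adjusted p 0.0287, same test), a call lost without AZA replicate 1 or 2 or DMSO replicate 3 (adjusted p up to 0.15). H1-2 (log2 −0.11), H1-4 (log2 0.12) and H1-5 (log2 0.00) did not pass the test. Beside these members, 5 of 5 epithelial markers fell in ASPC1 with AZA, from a sum of 13400 to 15010 CPM to 9132 to 9417 CPM. The leukocyte sum was 266 to 282.1 CPM and then 86.6 to 110.7 CPM, with CD3E at 0 in the AZA group. The fibroblast sum was 101.2 to 113.2 and then 97.44 to 106.9 CPM, and the endothelial sum stayed at or under 1.402 CPM.

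In CFPAC1, AZA gave 11 calls among 56 tested members, 1 higher and 10 lower, against 25.7% of all tested genes, 12.2% higher and 13.5% lower. The split was 5 higher and 6 lower with total-count scaling. The member that rose was H2BC3, which is low in this line. It went from 0.985, 1.05 and 1.64 CPM (37, 41 and 62 counts) to 2.77, 2.07 and 2.13 CPM (121, 89 and 88 counts), 1.90-fold with a 95% interval from 1.38 to 2.61 (log2 0.92, SE 0.22, adjusted p 0.00497, same test). H4C6, well counted in this line, was at 44.4, 44.1 and 47.7 CPM with DMSO and at 40.7, 39.5 and 41.6 CPM with AZA (log2 −0.16) and was not called. H3C8 fell from 97.3, 96.3 and 91.5 CPM to 74.5, 70.7 and 67.4 CPM (log2 −0.42, SE 0.073, adjusted p 5.02e-04, same test). H1-1 was at 7.24, 7.60 and 9.14 CPM and at 7.60, 7.46 and 7.30 CPM, which overlapped (log2 −0.10, adjusted p 0.505, same test).

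H2BC7 fell in CFPAC1 with AZA from 109, 98.7 and 86.7 CPM to 72.0, 71.6 and 70.2 CPM (log2 −0.46, SE 0.094), and H3C3 from 134, 137 and 114 CPM to 104, 92.8 and 91.9 CPM (log2 −0.41, SE 0.086). H2BC4 fell from 214, 199 and 180 CPM to 157, 156 and 159 CPM (log2 −0.33). The groups of each of these members were separate, for which members were in part named. H2AC20 (log2 −0.33) also fell, a call lost without AZA replicate 3 (adjusted p 0.0567). Of the H1 genes, H1-2 fell from 272, 265 and 303 CPM to 239, 243 and 237 CPM (log2 −0.23, adjusted p 0.00703, same test), a call lost with total-count scaling (adjusted p 0.0697). H1-3 fell by 0.27 on the log2 scale, a call lost in 6 alternatives (adjusted p up to 0.117). Of 5 epithelial markers 1 fell in CFPAC1 with AZA, and their sum was 8400 to 8825 CPM and then 7771 to 8072 CPM. The leukocyte sum was 73.37 to 83.32 and then 68.08 to 76.81 CPM, the fibroblast sum 146.8 to 158.5 and then 93.96 to 99.31 CPM, and the endothelial sum 1.166 to 1.386 and then 5.103 to 5.22 CPM. Nearly all of the fibroblast sum was COL1A1. The endothelial rise was that of PECAM1, from 0.86 to 4.70 CPM on average, while VWF was not called.

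The AZA comparisons of the lines share no library. They shared 8 of the 10 lower members in each (80% of each list), where the lower genes of the whole table were shared by 30.1% of those in ASPC1 and 39.7% of those in CFPAC1. The shared members were H1-3, H2AC20, H2BC13, H2BC18, H2BC21, H2BC4, H2BC7 and H3C3. The direct test of the difference between lines found 4 of 58 members, 1 higher and 3 lower in CFPAC1, against 17.3% of all genes, 8.66% higher and 8.65% lower. With total-count scaling the split was 3 higher and 3 lower. The 3 lower were H4C6 (log2 difference −4.48, adjusted p 2.32e-12, same test), H3C8 (−1.77, adjusted p 1.35e-08, same test) and H1-1 (−2.52, adjusted p 4.09e-05, same test). H2AC14 differed by 0.42, a call lost in 7 of the fits that left out 1 library (adjusted p up to 0.103).

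Overexpression of ZNF274 in Panc3.27 gave 25 calls among 55 tested members, 5 higher and 20 lower, against 36.9% of all tested genes, 19.8% higher and 17.1% lower. The member median was −0.07 on the log2 scale, against 0.01 over all genes. Lower were 8 H2B, 4 H2A, 4 H3, 2 H4 and 2 H1 genes, and higher were 2 H1, 2 H2B and 1 H2A gene. Together the members took 0.459%, 0.480% and 0.512% of the counts with the vector and 0.457%, 0.452% and 0.469% with OE, so the groups overlapped.

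The linker genes split in direction. H1-1 fell from 92.7, 94.6 and 101 CPM to 61.8, 58.8 and 57.1 CPM, or 1.62-fold (log2 −0.70, SE 0.051, adjusted p 1.9e-07, same test). H1-4 rose from 145, 154 and 199 CPM to 232, 243 and 246 CPM, or 1.45-fold (log2 0.53, SE 0.086, adjusted p 2.88e-04, same test). The groups of both genes were separate. H1-2 rose by 0.17 on the log2 scale, a call lost in every fit that left out 1 library except that without vector replicate 3 (adjusted p up to 0.102). H1-5 fell by 0.21, a call lost without vector replicate 3 (adjusted p 0.0528), and H1-3 (log2 0.04) did not pass the test. Of the core histone genes, H3C3 fell from 162, 144 and 136 CPM to 106, 91.1 and 102 CPM (log2 −0.56, SE 0.068, adjusted p 2.29e-05, same test). H2BC10 fell from 84.3, 90.9 and 91.9 CPM to 66.1, 64.2 and 64.7 CPM (log2 −0.45, SE 0.048), and H2BC17 from 99.6, 92.4 and 98.2 CPM to 71.5, 70.8 and 73.2 CPM (log2 −0.43, SE 0.047). The groups of these 3 members were separate, which was a condition for naming them.

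Smaller falls with OE were those of H2BC3 (log2 −0.35), H3C1 (log2 −0.34), H4C13 (log2 −0.32), H4C6 (log2 −0.26), H3C12 (log2 −0.24) and H2AC14 (log2 −0.22). H2BC7 fell from 86.2, 82.1 and 76.0 CPM to 71.5, 63.0 and 64.2 CPM (log2 −0.30, SE 0.060). H2AC17 was called at log2 −0.93 from very low counts, a call lost in 9 alternatives (adjusted p up to 0.153). Among those that rose, H2AC6 went from 76.5, 75.9 and 82.0 CPM to 100, 96.5 and 97.9 CPM (log2 0.33, SE 0.047, adjusted p 1.01e-04, same test), and its groups were separate. H2BC13 (log2 0.17) and H2BC5 (log2 0.14) also rose, with calls lost in 4 and 10 alternatives (adjusted p up to 0.108 and 0.256). H2AC6 and H2BC4 form a divergent pair in which H2BC4 was not called. Beside these members, 3 of 5 epithelial markers fell with OE, from a sum of 4663 to 4841 CPM to 4178 to 4244 CPM. The fibroblast sum was 71.72 to 73.86 and then 52.74 to 55.5 CPM, the endothelial sum 30.2 to 30.72 and then 54.43 to 57.8 CPM, and the leukocyte sum stayed under 2 CPM. Nearly all of the fibroblast sum was COL1A1. Nearly all of the endothelial sum was VWF, at 30.3 and then 55.4 CPM on average.

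The controls of the siRNA and AZA experiments differed little in the members. In ASPC1, siCTRL against DMSO gave 8 calls of 57, 2 higher and 6 lower, against 30.1% of all tested genes, 15.9% higher and 14.2% lower. H4C13 was lower with siCTRL, at 14.9, 17.3 and 16.9 CPM against 24, 31.4 and 28.4 CPM (log2 −0.77, SE 0.098, adjusted p 2.15e-05, same test). H4C6 was higher by 1.71 on the log2 scale, from few counts, so its level in ASPC1 differed among the control groups as well. The count was 5 without DMSO replicate 2. In CFPAC1 the same comparison gave 7 calls of 56, 3 higher and 4 lower, against 15.5% of all tested genes, 7.30% higher and 8.22% lower. H2BC21 was at 138, 148 and 147 CPM with DMSO and 166, 191 and 191 CPM with siCTRL (log2 0.34, adjusted p 7.99e-04, same test). The count in CFPAC1 was 4 without siCTRL replicate 2 or 3 and 11 without siCTRL replicate 1. For the siRNA comparisons, which share no library, 9 members fell in both lines, 25% of the 36 lower in ASPC1 among those tested in both and 90% of the 10 lower in CFPAC1, where the shares over all genes were 38.2% and 66.0%.

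Among the 55 members tested in all 5 treatment comparisons, 12 were lower in none, 20 in 1, 9 in 2, 10 in 3 and 2 in 4 comparisons. H2BC7 and H3C3 were lower in all 5, which was 3.64% of the members, where 34 of 14297 genes (0.238%) were. H2BC7 had log2 fold changes of −0.89 and −0.39 for siZNF274 in ASPC1 and CFPAC1, −0.50 and −0.46 for AZA, and −0.30 for OE. H3C3 had −0.61, −0.29, −0.49, −0.41 and −0.56 in the same order. Its call for siZNF274 in CFPAC1 was lost in every fit that left out 1 library except that without siCTRL replicate 3. H2AC14 and H2BC18 were lower in 4 comparisons. Libraries labelled siZNF274 and OE libraries thus had lower levels of both members than their own controls. H1-2 and H2BC5 were higher in 2 comparisons each, siZNF274 in CFPAC1 and OE in Panc3.27, with the lost calls named above.

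The deposited list holds H3K9me3 peaks of ASPC1 with shCTRL and with shZNF274. None of the 65 members overlapped a peak of this list by 1 base or more, and none did when extended by 2000 bases on each side. This mark of silent chromatin is the one that the machinery recruited by ZNF274 places. The nearest peak lay 2132 to 135984 bases away, with a median of 61461. It lay 46977 bases from H4C6, 15955 from H3C8 and 55711 from H1-1, the members far lower in ASPC1 than in CFPAC1. Of all 19955 protein-coding genes 6184 (31.0%) overlapped a peak, and of the 447 that span at most 1000 bases 73 (16.3%) did.

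The genes that run with histone synthesis were read from other lists. In ASPC1 libraries labelled siZNF274, 26 of 36 S-phase genes fell and 2 rose (median log2 −0.29), among them RFC2 of the clamp loader (log2 −1.14). In CFPAC1 30 fell and 1 rose (median log2 −0.31), with RFC2 at −0.90, where 10 of 56 members fell. The direct test of the difference between lines called 4 of these 36 genes, 3 higher and 1 lower in CFPAC1, beside the 28 of 58 members. Under AZA, 14 rose and 4 fell in ASPC1, and 9 rose and 2 fell in CFPAC1. With OE in Panc3.27, 27 fell and 1 rose. Mitotic genes fell in 15 of 15 in ASPC1 and 11 of 15 in CFPAC1 with siZNF274. In the direct test of the difference between lines, 9 of the 15 mitotic genes were called, all higher in CFPAC1. So were 4 of 5 epithelial markers, again all higher. Over all genes that test called 9.28% higher and 7.37% lower. Over all tested genes, 21.5% were higher and 24.2% lower in ASPC1 siZNF274, and 11.6% and 13.2% in CFPAC1 siZNF274. With AZA these shares were 17.2% and 18.6% in ASPC1 and 12.2% and 13.5% in CFPAC1. With OE they were 19.8% and 17.1%. The part of these lists in the levels of the members was not tested.

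SLBP, which binds the stem-loop of the members' mRNAs, was at log2 −0.03 in ASPC1 siZNF274 and did not pass the test. It fell by 0.29 on the log2 scale in CFPAC1 libraries labelled siZNF274 (adjusted p 0.00498, same test) and by 0.36 with OE in Panc3.27 (adjusted p 2.56e-04, same test). NPAT, the activator of the members' transcription, was at log2 −0.13 and −0.05 in the siRNA comparisons, neither of which passed the test, and fell by 0.20 with OE (adjusted p 0.00941, same test). LSM11, a subunit of the U7 particle, rose by 0.46, 0.30 and 0.29 on the log2 scale in these comparisons. Of 16 genes of histone mRNA transcription, processing and decay, 4 rose and 3 fell in ASPC1 siZNF274, 1 rose and 4 fell in CFPAC1 siZNF274, and 1 rose and 6 fell with OE. In ASPC1 these were 25% higher and 18.8% lower, near the 21.5% and 24.2% of all tested genes. In CFPAC1 they were 6.25% and 25%, against 11.6% and 13.2%. With OE they were 6.25% and 37.5%, against 19.8% and 17.1%. Of 11 histone chaperones, which carry histones to DNA, 6 fell in each siRNA comparison and 8 with OE, and none rose in those 3. Lower were thus 54.5%, 54.5% and 72.7% of them, against 24.2%, 13.2% and 17.1% of all tested genes.

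Histone genes outside the rule moved as follows. Of the tested replication-independent variants, whose mRNAs are mostly polyadenylated, 8 of 10 fell in ASPC1 siZNF274, against 24.2% of all tested genes. In CFPAC1 siZNF274 1 of 11 rose and 4 fell, against 11.6% and 13.2% of all tested genes. With OE 5 of 11 rose and 3 fell, against 19.8% and 17.1% of all tested genes. H1-10, a linker variant, rose by 0.93 with OE. Of 4 tested canonical genes without a symbol of the rule, H2BU1 (log2 −0.79), H2AW (log2 −0.42) and H4-16 (log2 −0.36) fell in ASPC1 siZNF274. Over all tested genes 24.2% fell there. None of the 4 was called in CFPAC1 siZNF274. With OE 2 of the 4 rose and 1 fell, against 19.8% and 17.1% of all tested genes. H2BU1 was also higher in ASPC1 with siCTRL than with DMSO (log2 0.65, adjusted p 0.00274, same test). The testis linker gene H1-6 had 2, 2 and 4 counts with DMSO and 31, 28 and 20 with AZA in ASPC1 (log2 3.25), and 6, 9 and 5 counts and 23, 18 and 21 in CFPAC1 (log2 1.46). It rose in both lines, unlike H4C6, H1-1 and H3C8, which rose under AZA in ASPC1 and not in CFPAC1.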

How the data were processed

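For RNA-seq the authors deposited raw counts per gene, with hg38 positions. The submitters' processing notes name STAR 2.7.10b and FastQC, while the program that counted reads, the strand setting and the annotation are not given in any source used here. The deposited peak list gives a constant score for each of its 63955 H3K9me3 peaks, so only positions were used. Members and gene lists were chosen with earlier results of these data known.

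Each line was fitted by itself in edgeR 4.0.16 (R 4.3.3), with 12, 12 and 6 libraries, and ASPC1 and CFPAC1 together for differences between lines. Genes passed filterByExpr, libraries were scaled by TMM, and edgeR's quasi-likelihood test was adjusted by Benjamini-Hochberg at 0.05 over all tested genes. "Same test" refers to it. Differences between lines are CFPAC1 minus ASPC1 of the log2 fold changes. Levels are CPM with mean ± SD (n = 3). Each SE and 95% interval was derived from the fold change and the F statistic of the test. They are approximate and can be too narrow for large folds from few counts. The design text calls replicates biological, but the labels name no separate cultures, so p-values cover only the spread between these libraries, which may be technical. Named were the 5 H1 genes, per family up to 3 called members with separate groups and the largest fold, and members called against the majority. H2BC4 in divergent pairs, and members repeated across comparisons, were named after their values were seen. The fit was tested on simulated data. Alternatives were RLE, upper-quartile and total-count scaling, DESeq2 1.42.0, no count filter, fits of 2 groups, a replicate block and leaving out each library. The labels give no pairing. Deviations of same-numbered libraries correlated over 0.1 in all 3 pairs in CFPAC1 siZNF274 with siCTRL (0.508, 0.222 and 0.158). They did so too in ASPC1 siCTRL with DMSO (0.562, 0.175 and 0.464), and in no other comparison. Calls changed by the replicate block are named for these comparisons alone. A library matched its own number best in 2 of 6 and 6 of 6 cases there, so pairing in CFPAC1 was not established.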

Additional observations from a re-analysis of the deposited data

Results flagged for a closer look

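The effect of a treatment differed between ASPC1 and CFPAC1 in a direct test for 28 members with siZNF274 and for 4 members with AZA (quasi-likelihood test of edgeR, p adjusted by Benjamini-Hochberg). All differences are CFPAC1 minus ASPC1 on the log2 scale. For siZNF274, the members named by rule were the linker gene H1-2 with 0.33, the H2A genes H2AC15 with 0.55, H2AC16 with 0.49 and H2AC14 with 0.42, the H2B genes H2BC6 with 0.91, H2BC18 with 0.60 and H2BC11 with 0.56, the H3 genes H3C14 with 5.03, H3C12 with 0.53 and H3C11 with 0.42, and the H4 genes H4C6 with 1.92 and H4C8 with 0.43. The calls of H1-2, H2AC14, H2AC16, H2BC11, H3C11 and H3C14 were lost without single libraries, with adjusted p up to 0.0646, 0.096, 0.0717, 0.0697, 0.133 and 0.296 in that order. H3C14 rests on 2 high control libraries of 3 in ASPC1.

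For AZA the differences were −4.48 for H4C6, −2.52 for H1-1, −1.77 for H3C8 and 0.42 for H2AC14. The call of H2AC14 was lost in 7 of the fits that left out 1 library.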

How the results depend on the processing

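Named members, the S-phase genes with the largest changes, SLBP, NPAT and ZNF274 were followed through the alternatives. Genes named from the other lists were not. Of 170 called values, 0 changed sign in any alternative, 119 kept the call in all of them and 51 lost it in at least 1. In ASPC1 siZNF274 the count of 37 members ran from 36 to 43 over the other scalings, DESeq2, no count filter, the fit of 2 groups and the replicate block, and from 32 to 41 when 1 library was left out. Counts moved further elsewhere. Without the count filter they were 17 in CFPAC1 AZA, 15 in ASPC1 siCTRL against DMSO, 11 in CFPAC1 siCTRL against DMSO and 8 for the difference between lines in AZA. CFPAC1 AZA gave 17 in the fit of 2 groups. Leaving out 1 library gave 6 to 15 for CFPAC1 siZNF274, 5 to 11 for siCTRL against DMSO in ASPC1, 4 to 11 for the same in CFPAC1, and 18 to 33 for the difference between lines in siZNF274. It gave 10 to 14 for ASPC1 AZA, 9 to 14 for CFPAC1 AZA, 19 to 28 for OE, 3 to 5 for the difference between lines in AZA and 34 to 40 for CFPAC1 against ASPC1 DMSO. The cause of these moves was not tested. Deviations of same-numbered libraries correlated from −0.104 to 0.562 in ASPC1, −0.291 to 0.508 in CFPAC1 and −0.411 to 0.205 in Panc3.27, and only in CFPAC1 siZNF274 against siCTRL and ASPC1 siCTRL against DMSO were all 3 pairs over 0.1. With the replicate number as a block the counts were 39, 16, 16, 12 and 28 for siZNF274 in ASPC1 and CFPAC1, AZA in ASPC1 and CFPAC1, and OE. They were 10 and 8 for siCTRL against DMSO, 32 and 4 for the differences between lines, and 37 for the DMSO groups. In those 2 comparisons the block changed the call of H1-4 in CFPAC1 and of no other named member. Each library correlated best with its own number in 26 of 36 cases in ASPC1, 10 of 36 in CFPAC1 and 1 of 6 in Panc3.27. For siZNF274 with siCTRL this was 5 of 6 cases in ASPC1 and 2 of 6 in CFPAC1. For ASPC1 siCTRL with DMSO it was 6 of 6. Depth limits H4C6, H1-1 and H3C14 in ASPC1, which rest on a few reads per control library.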
